A study of Mus musculus with 10 samples.

Results

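The Tex genes are mouse genes named for expression in the testis. Members were taken by symbol from a table of TPM values (counts of reads per length of gene, set to 1 common sum for each library): the symbol had to be Tex followed by a number, with or without a decimal digit, and Tex12 was left out. This gave 29 of the 36066 genes in the table. Expression was measured by RNA-seq in 5 groups of 2 libraries each, all of strain C57BL6 in the labels. Female ESCs were embryonic stem cells from fertilized embryos, and pESCs were parthenogenetic embryonic stem cells, grown from oocytes activated without sperm and holding a maternal genome only. ESC-PGCLCs and pESC-PGCLCs were primordial germ cell-like cells made from these lines in culture, by way of epiblast-like cells treated with activin A and bFGF and then aggregates treated with BMP4, SCF, EGF and LIF. The study sorted them as SSEA1 and CD61 double-positive cells. The PGC libraries are labelled only as PGCs, with no embryonic day, and the labels do not say how many lines or embryos stand behind a library. The lines carried an Actin-GFP transgene, and a protocol text shared by all the labels also names crotonic acid, which no label ties to a library. The ESCs and pESCs are called stem cells here, and the other 3 groups germ cells. The question was which Tex genes rose from stem cells to germ cells, and whether the origin of the line made a difference.

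Tex is a naming series and not a protein family, and its members do unrelated work. Tex14 builds the intercellular bridges that join dividing germ cells, Tex11 and Tex15 act in meiotic prophase, and Tex15 and the Tex19 pair restrain retrotransposons. Tex101 is an anchored surface protein of germ cells that sperm maturation depends on. Other members are housekeeping proteins found in most cells: Tex264 is a receptor for the autophagy of endoplasmic reticulum, Tex261 helps cargo leave that compartment, Tex2 is a lipid-transfer protein of its membrane, and Tex10 belongs to a nuclear complex of ribosome assembly and is also used by pluripotent cells. Primordial germ cells precede meiosis and spermiogenesis, and many genes of the series are known for much later stages.

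Values were compared as log2(TPM + 1), and differences below are on that scale unless called TPM, so changes of low genes are understated. Tests with limma covered the 27259 genes that reached 0.1 TPM in 2 or more libraries, and a call needed both an adjusted p under 0.05 and a 2-fold difference. Of the 29 members, 23 were tested. An exact two-sided permutation of 2 libraries against 2 has a smallest p of 0.333, so limma's model of the variance carries the p-values. The reads recovered from the TPM lay between 6779841 and 18572904 in a library, and both ESC-PGCLC libraries were the shallowest. For the median member exon length of 1875 bases, 3 reads stood for 0.135 to 0.393 TPM. Such a floor covers counting error only.

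The labels were checked against marker genes. All 9 primordial germ cell markers exceeded 1 TPM in every library, stem cells included, so that limit did not separate the groups. Their summed level was 5457 to 7900 TPM in germ cells against 407 to 931 in stem cells. Much of both sums was Dppa3, at 3165 to 5681 TPM in germ cells and 353 to 873 in stem cells. Dazl was at 1084 TPM or more in germ cells against 18.7 or less. The 7 pluripotency markers summed to 628 to 1036 TPM in stem cells and 183 to 297 in germ cells. Nanog alone was at 403 to 674 TPM in stem cells and 24.2 to 43.8 in germ cells. Sox2, of the same list, was at 32.7 to 62.4 TPM in stem cells. It was higher in ESC-PGCLCs (97.3 and 110) and PGCs (83.4 and 75.1), but not in pESC-PGCLCs (23.9 and 29.7). Pou5f1, which primordial germ cells also use, was at 7.49 to 23.5 TPM in stem cells and at 0 to 3.14 in germ cells, with 0.374 and 0 in the ESC-PGCLC libraries. The germ cell libraries, the cultured ones included, also held RNA of cell types that their labels do not name. Gonadal somatic markers (8 genes, such as Wt1 and Lhx9) summed to 7.06 to 9.22 TPM in stem cells, 25.1 to 30.9 in ESC-PGCLCs, 53.7 to 60.8 in pESC-PGCLCs and 107 to 123 in PGCs. Blood markers (8 genes, mostly haemoglobins) summed to at most 4.10 TPM in stem cells, and to 437 to 504, 2230 to 2762 and 1704 to 1890 TPM in the same 3 groups. Fibroblast markers (7 genes) summed to at most 0.499 TPM in stem cells and to 3.88 to 11.3 in germ cells, with Col1a1 at 0.555 TPM or less throughout. Spermatid markers (5 of 6 in the table) summed to at most 1.15 TPM in any library. No germ cell library was free of these other markers, so no comparison could be run without them, and their part in the results below was not tested. Fewer cells of a type and less RNA per cell cannot be told apart in such bulk samples.

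The promoters of the Tex genes differ as widely as their proteins. RefSeq (GRCm38.p6) gave the 300 bases around the start of 25 members, 250 before and 50 after it, and Tex11, Tex15, Tex22 and Tex24 had no entry. The 200 bases before the start are shown for 4 genes that rose in germ cells and for Tex19.1, which did not rise in both kinds of PGCLC, with each CG pair in capitals, since methylation of CpG-rich promoters is a known means of silencing germline genes.
Tex14, chr11:87404865-87405064, + strand: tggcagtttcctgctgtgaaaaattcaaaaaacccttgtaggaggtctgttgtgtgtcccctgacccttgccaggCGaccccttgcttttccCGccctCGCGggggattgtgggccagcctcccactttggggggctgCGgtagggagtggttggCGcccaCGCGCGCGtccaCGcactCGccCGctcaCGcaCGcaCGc
Tex30, chr1:44102442-44102641, - strand: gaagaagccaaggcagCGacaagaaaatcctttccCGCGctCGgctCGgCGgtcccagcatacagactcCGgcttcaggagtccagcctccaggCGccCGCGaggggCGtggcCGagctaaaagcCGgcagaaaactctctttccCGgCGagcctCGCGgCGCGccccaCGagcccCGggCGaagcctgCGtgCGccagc
Tex101, chr7:24672051-24672250, - strand: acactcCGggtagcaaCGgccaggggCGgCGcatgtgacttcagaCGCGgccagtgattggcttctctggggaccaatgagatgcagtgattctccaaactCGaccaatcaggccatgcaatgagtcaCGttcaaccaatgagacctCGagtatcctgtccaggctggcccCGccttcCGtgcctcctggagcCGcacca
Tex37, chr6:70918923-70919122, - strand: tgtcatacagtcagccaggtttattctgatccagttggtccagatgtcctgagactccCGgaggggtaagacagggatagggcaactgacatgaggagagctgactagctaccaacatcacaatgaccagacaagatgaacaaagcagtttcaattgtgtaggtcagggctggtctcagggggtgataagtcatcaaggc
Tex19.1, chr11:121145943-121146142, + strand: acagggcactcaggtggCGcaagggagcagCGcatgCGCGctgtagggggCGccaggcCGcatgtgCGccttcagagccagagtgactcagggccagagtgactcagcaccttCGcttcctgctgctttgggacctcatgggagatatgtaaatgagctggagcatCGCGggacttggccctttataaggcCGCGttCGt

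In these stretches Tex30 held 24 CG pairs, Tex14 held 16, Tex19.1 held 13, Tex101 held 12 and Tex37 held 1. The RefSeq start of Tex101 lies 4625 bases inside the GENCODE gene. Over the full 300 bases, the median of all 32851 promoters in the RefSeq table was 7 CG pairs, and 34.6% had 15 or more. Of the 9 germ cell risers with an entry, 5 had 15 or more (Tex2 with 41, Tex30 with 38, Tex10 with 21, Tex14 with 20 and Tex101 with 19), while Tex52, Tex19.2, Tex37 and Tex16 had 0 to 4. The RefSeq start of Tex16 is 82513 bases from the GENCODE start, so its window may not be the start in use. Of the 10 members with an entry that stayed under 1 TPM in every library, Tex26 had 15 and the others 0 to 4. The letters GCGGGA, bound by E2F6-type factors, occur on either strand in 19.98% of all promoters and in 8 of the 25 members: Tex2, Tex9, Tex14, Tex19.1, Tex26, Tex30, Tex261 and Tex264. Counted from the start, they began at -111 in Tex14, -168 in Tex30, -69 in Tex2 and -33 in Tex19.1. The E-box letters CACGTG, a palindrome that does not overlap the other letters, were found in 7.15% of all promoters and in Tex10 and Tex36.

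**Figure D1:**
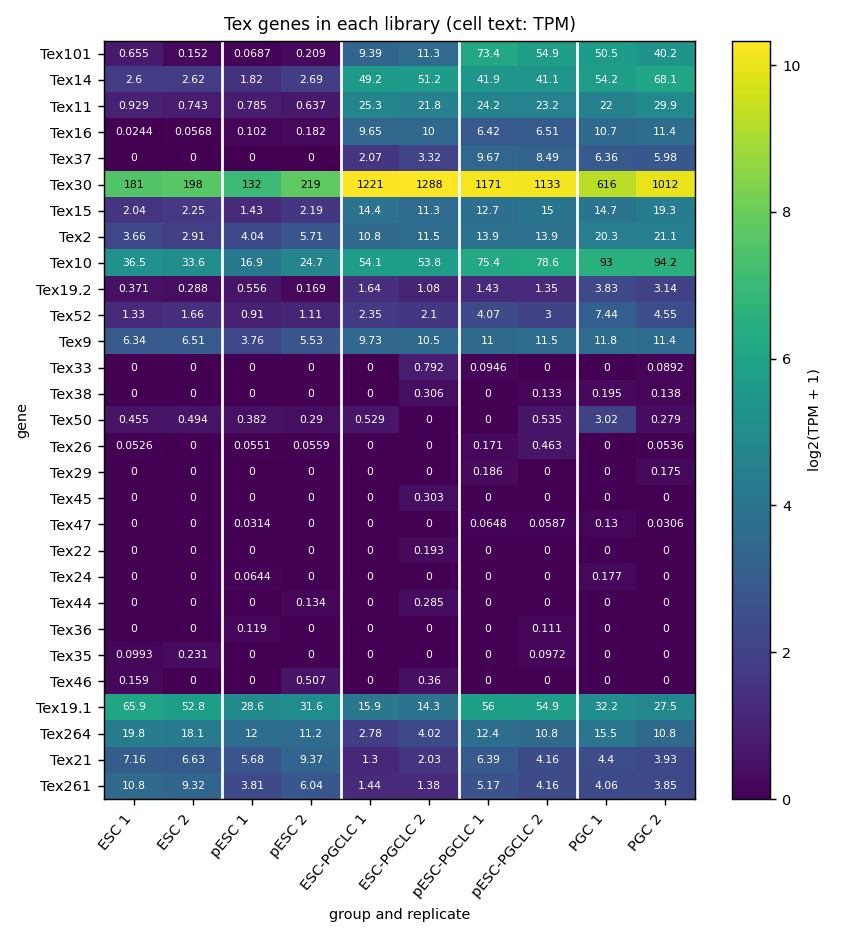
Heat map of log2(TPM + 1) for the 29 Tex genes (rows, ordered by the germ cell minus stem cell difference) in 10 libraries (columns, by group and replicate), with the TPM written in each cell. The upper rows are low in the 4 stem cell libraries and higher in the 6 germ cell libraries, the middle rows are near 0 throughout, and Tex19.1, Tex264, Tex21 and Tex261 at the bottom are lowest in ESC-PGCLCs.

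When the 3 germ cell groups were set against both stem cell groups, 11 of the 29 Tex genes were called higher and 0 lower, against 19.0% and 8.86% of all tested genes. Tex101, Tex14, Tex11, Tex16, Tex37, Tex30, Tex15, Tex2, Tex10, Tex19.2 and Tex52 rose, by 1.05 to 4.69 in log2(TPM + 1). In 12 members, these 11 and Tex9, every germ cell library lay above every stem cell library, as in 27.3% of all tested genes, and 0 members had the reverse order (10.5% of all). The median difference over all 29, of which 12 stayed under 1 TPM in every library, was 0.11, with or without Tex37 at its bound, beside 0.06 over all genes of the table. The split depended on scaling. The median difference of all tested genes was 0.18, and -0.31 after each library was shifted to a common median of the 9024 genes that had 1 TPM or more everywhere. That centring left 8 members called higher and brought 4 called lower. The split was 9 and 3 under quantile normalization, 12 and 3 by voom on the recovered reads, and 12 and 2 with a pseudocount of 0.1 TPM. Here and below, the shares of all tested genes are those of the fit without rescaling. Shares under the other settings are not given, so the Tex counts under those settings have no such reference. Without rescaling, 4 members had a limma adjusted p of 0.00276 or less and a fall under 2-fold, at -0.98 ± 0.14 for Tex261, -0.89 ± 0.17 for Tex21, -0.79 ± 0.14 for Tex264 and -0.51 ± 0.10 for Tex19.1.

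Tex14, Tex11 and Tex15, which act in germ cell division and meiosis, rose in germ cells by 3.91, 3.83 and 2.38. Tex14 (chr11:87405065-87555823, GRCm38) was at 2.60 and 2.62 TPM in ESCs, 1.82 and 2.69 in pESCs, 49.2 and 51.2 in ESC-PGCLCs, 41.9 and 41.1 in pESC-PGCLCs, and 54.2 and 68.1 in PGCs. Its germ cell libraries lay far above its stem cell libraries, with no overlap, and the difference was 3.91 ± 0.11 (SE, limma adjusted p = 1.70e-07, 6 libraries against 4). Tex11, an X-linked gene for meiotic crossing over (chrX:100838648-101059667), was at 0.929, 0.743, 0.785 and 0.637 TPM in the ESC and pESC libraries. In the germ cells it was at 25.3 and 21.8 TPM in ESC-PGCLCs, 24.2 and 23.2 in pESC-PGCLCs, and 22.0 and 29.9 in PGCs. All 3 germ cell groups overlapped in Tex11, and they stood above stem cells by 3.83 ± 0.12 (limma adjusted p = 2.04e-07). Tex15 (chr8:33516738-33585582) was at 2.04 and 2.25 TPM in ESCs, 1.43 and 2.19 in pESCs, 14.4 and 11.3 in ESC-PGCLCs, 12.7 and 14.99 in pESC-PGCLCs, and 14.7 and 19.3 in PGCs. Its rise of 2.38 ± 0.14 (limma adjusted p = 3.19e-06) was smaller. Its stem cell levels were above 1 TPM, as were those of Tex14. Tex14, Tex11 and Tex15 were called higher in each kind of PGCLC against its own stem cells and in PGCs.

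Tex16, the other X-linked member (chrX:112011007-112127326), was nearly silent in stem cells, with 1 and 3 reads in ESCs and 4 and 7 in pESCs (0.0244 to 0.182 TPM). It reached 9.65 and 10.01 TPM in ESC-PGCLCs, 6.42 and 6.51 in pESC-PGCLCs, and 10.7 and 11.4 in PGCs, a difference of 3.19 ± 0.10 (limma adjusted p = 1.93e-07). Its pESC-PGCLC libraries were the lowest of the germ cells and did not overlap with the others. Tex101 (chr7:24668007-24676675) was likewise close to absent in stem cells, at 0.655 and 0.152 TPM in ESCs and 0.0687 and 0.209 in pESCs, which is 1 to 10 reads a library. It stood at 9.39 and 11.3 TPM in ESC-PGCLCs, 73.4 and 54.9 in pESC-PGCLCs, and 50.5 and 40.2 in PGCs. The largest fitted rise of the series was that of Tex101, 4.69 ± 0.15 (limma adjusted p = 2.60e-07), with ESC-PGCLCs between stem cells and the other germ cells. Tex37 (chr6:70913087-70918927) had 0 reads in all 4 stem cell libraries, where 3 reads would have been 0.310 to 0.425 TPM. It was at 2.07 and 3.32 TPM in ESC-PGCLCs (8 and 11 reads), 9.67 and 8.49 in pESC-PGCLCs, and 6.36 and 5.98 in PGCs. Against a floor of 3 reads per stem cell library, the mean TPM was at least 6.93-fold higher in ESC-PGCLCs, at least 23.4-fold higher in pESC-PGCLCs and at least 15.9-fold higher in PGCs, and it was called in all these comparisons (limma adjusted p = 1.38e-06 for the 3 groups together).

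Tex30 was the most abundant member in every library and rose further. Its TPM (chr1:44086613-44102441) was 181 and 198 in ESCs, 132 and 219 in pESCs, 1221 and 1288 in ESC-PGCLCs, 1171 and 1133 in pESC-PGCLCs, and 616 and 1012 in PGCs. The groups did not overlap between stem and germ cells, and the difference was 2.53 ± 0.18 (limma adjusted p = 9.92e-06). Of its 100-base stretches 9.58% also occur in Gm29247, an overlapping gene on the same strand that was at 429 TPM or more in germ cells and 270 or less in stem cells, so its level is uncertain.

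Among the members known from most cells, Tex10 and Tex2 rose from levels that stem cells already had. Tex10 (chr4:48430858-48473459) was at 36.5 and 33.6 TPM in ESCs, 16.9 and 24.7 in pESCs, 54.1 and 53.8 in ESC-PGCLCs, 75.4 and 78.6 in pESC-PGCLCs, and 93.0 and 94.2 in PGCs. It was called over all germ cells (1.41 ± 0.11, limma adjusted p = 1.61e-05), in pESC-PGCLCs against pESCs (1.86 ± 0.17, adjusted p = 0.000105) and in PGCs (1.77 ± 0.15, adjusted p = 3.26e-05). Median centring ended the call over all germ cells (0.92). In ESC-PGCLCs against ESCs the difference of 0.61 ± 0.17 stayed under 2-fold (adjusted p = 0.0216). Tex2 (chr11:106502147-106613423) was at 3.66 and 2.91 TPM in ESCs, 4.04 and 5.71 in pESCs, 10.8 and 11.5 in ESC-PGCLCs, 13.9 in both pESC-PGCLC libraries, and 20.3 and 21.1 in PGCs. Its levels did not overlap between the germ cell groups, which stood above stem cells by 1.66 ± 0.11 together (limma adjusted p = 7.31e-06). Of the 100-base stretches of Tex10, 2.80% also occur in Invs, which lies on the opposite strand and rose as well (2.18 ± 0.12). The counting strand is not given in the sources used here, and reads from such partners then cannot be told apart.

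Tex19.2, Tex52 and Tex9 rose by less on the log2(TPM + 1) scale, which understates changes of low genes such as Tex19.2. Tex19.2 (chr11:121116215-121118677) was at 0.371 and 0.288 TPM in ESCs, 0.556 and 0.169 in pESCs, 1.64 and 1.08 in ESC-PGCLCs, 1.43 and 1.35 in pESC-PGCLCs, and 3.83 and 3.14 in PGCs. It was called over all germ cells (1.13 ± 0.13, limma adjusted p = 0.000150) and in PGCs (1.74 ± 0.18, adjusted p = 8.55e-05), and it was at 0.82 ± 0.21 (adjusted p = 0.0123) in ESC-PGCLCs and 0.83 ± 0.21 (adjusted p = 0.0124) in pESC-PGCLCs, under 2-fold. Under median centring both calls were lost (0.64 over all germ cells, 0.98 in PGCs), and under quantile normalization that over all germ cells was (0.78). In ESC-PGCLCs and pESC-PGCLCs Tex19.2 was called higher with a pseudocount of 0.1 TPM (1.75 and 1.83) and by voom (1.95 and 1.79). All these values rest on 3 to 58 reads a library. Tex52 (chr6:128375456-128385144) was at 1.33 and 1.66 TPM in ESCs, 0.910 and 1.11 in pESCs, 2.35 and 2.10 in ESC-PGCLCs, 4.07 and 3.004 in pESC-PGCLCs, and 7.44 and 4.55 in PGCs. Its difference of 1.05 ± 0.15 (limma adjusted p = 0.000522) was just past 2-fold, and it fell to 0.99 without pESC-PGCLC replicate 1 and to 0.95 without PGC replicate 1, which ended the call, as did quantile normalization (0.59) and median centring (0.56). In PGCs both scalings ended its call too (0.86 and 0.85). Tex52 overlaps Foxm1 on the same strand, and 2.54% of its stretches occur there. Foxm1 rose as well, by 1.07 ± 0.13 over all germ cells and 1.71 ± 0.17 in PGCs. Tex9 (chr9:72450394-72492212) was at 6.34 and 6.51 TPM in ESCs, 3.76 and 5.53 in pESCs, 9.73 and 10.5 in ESC-PGCLCs, 11.0 and 11.5 in pESC-PGCLCs, and 11.8 and 11.4 in PGCs. It was called in pESC-PGCLCs against pESCs alone (1.14 ± 0.17, limma adjusted p = 0.00115, and no longer called without pESC replicate 1, at 0.91, with quantile normalization, at 0.46, or with median centring, at 0.41), and whether this differed from the other line was tested below. Of its stretches 27.2% also occur in Mns1, which overlaps it on the opposite strand and was higher in pESC-PGCLCs too (1.49 ± 0.23).

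**Figure D2:**
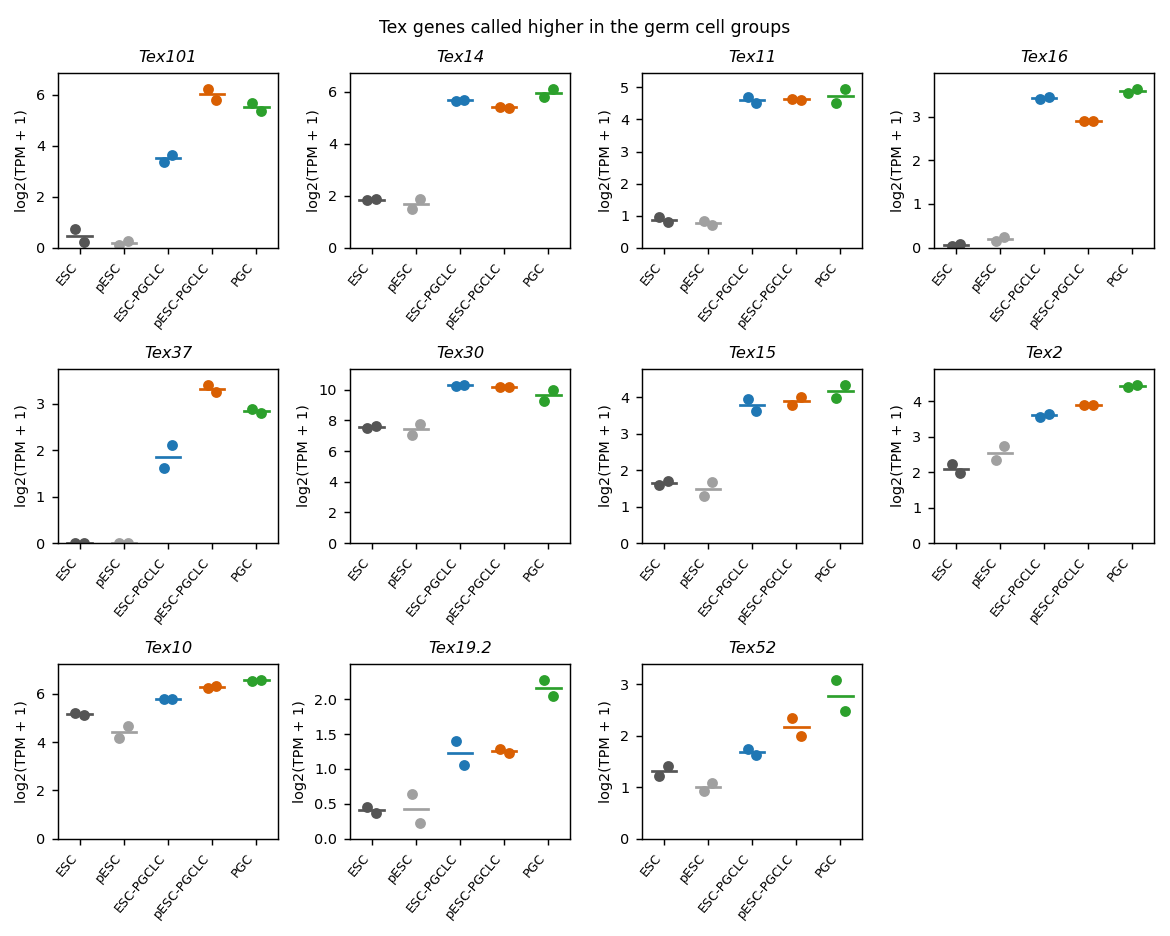
Level in log2(TPM + 1) (vertical axes, each starting at 0) of the 11 Tex genes called higher in germ cells, by group, with each point a library and each line the mean of 2. All 6 germ cell points lie above all 4 stem cell points in every panel. Both ESC-PGCLC points are the lowest of the germ cells in Tex101, Tex37, Tex10, Tex2 and Tex52.

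Each kind of PGCLC was then compared with the line it came from. In ESC-PGCLCs against ESCs, 8 of 29 Tex genes were called higher and 4 lower, against 15.3% and 14.5% of all tested genes. The 8 were Tex14 (3.83 ± 0.17), Tex11 (3.74 ± 0.18), Tex16 (3.38 ± 0.15), Tex101 (3.03 ± 0.24), Tex30 (2.72 ± 0.28), Tex15 (2.13 ± 0.21), Tex37 and Tex2 (1.505 ± 0.18), all at a limma adjusted p of 0.000249 or less. In pESC-PGCLCs against pESCs, 11 of 29 were called higher and 0 lower, against 20.8% and 6.80% of all tested genes. These were Tex101 (5.83 ± 0.24), Tex11 (3.85 ± 0.18), Tex14 (3.72 ± 0.17), Tex37, Tex30 (2.75 ± 0.28), Tex16 (2.71 ± 0.15), Tex15 (2.41 ± 0.21), Tex10, Tex2 (1.36 ± 0.18), Tex52 (1.17 ± 0.24) and Tex9, at a limma adjusted p of 0.00491 or less. After median centring the pESC comparison gave 8 higher and 2 lower, and after quantile normalization 8 higher and 1 lower. The calls of Tex2 (0.63 and 0.69), Tex52 (0.44 and 0.66) and Tex9 were lost under both, and that of Tex52 also without pESC-PGCLC replicate 1 (0.997). In PGCs against both stem cell groups, 11 of 29 were called higher and 0 lower (25.3% and 8.06% of all). They were Tex101 (5.20 ± 0.21), Tex14 (4.18 ± 0.15), Tex11 (3.91 ± 0.16), Tex16 (3.47 ± 0.13), Tex37, Tex15 (2.59 ± 0.18), Tex30 (2.13 ± 0.25), Tex2 (2.12 ± 0.15), Tex10, Tex19.2 and Tex52 (1.61 ± 0.21), at a limma adjusted p of 0.000283 or less. Median centring made this 9 and 3, quantile normalization 10 and 2, and voom 11 and 2. The PGCLC and PGC comparisons share stem cell libraries, so their values are given side by side and are not independent.

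A further 4 members were called lower in ESC-PGCLCs than in ESCs, namely Tex19.1, Tex264, Tex261 and Tex21, and 0 of these were called lower in pESC-PGCLCs than in pESCs. A count of 4 of 29 is near the 14.5% of all tested genes called lower in ESC-PGCLCs. The share of all tested genes called lower was also smaller in pESC-PGCLCs, at 6.80%. Tex19.1, a repressor of retrotransposons that stem cells also use (chr11:121146143-121148319), was at 65.9 and 52.8 TPM in ESCs, 28.6 and 31.6 in pESCs, 15.9 and 14.3 in ESC-PGCLCs, 56.0 and 54.9 in pESC-PGCLCs, and 32.2 and 27.5 in PGCs. It fell by 1.90 ± 0.16 from ESCs to ESC-PGCLCs (limma adjusted p = 4.14e-05), while from pESCs to pESC-PGCLCs the difference was 0.86 ± 0.16 (adjusted p = 0.00269, under 2-fold), and 0.13 after median centring (adjusted p = 0.441). The PGC libraries of Tex19.1 overlapped with the pESC libraries, and the pESC-PGCLC libraries with the ESC libraries. Tex264 (chr9:106658746-106685927) was at 19.8 and 18.1 TPM in ESCs, 12.0 and 11.2 in pESCs, 2.78 and 4.02 in ESC-PGCLCs, 12.4 and 10.8 in pESC-PGCLCs, and 15.5 and 10.8 in PGCs. It fell by 2.19 ± 0.21 in ESC-PGCLCs (limma adjusted p = 8.80e-05), and pESC-PGCLCs overlapped with pESCs (0.00 ± 0.21, 95% interval -0.48 to 0.49).

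Tex261 (chr6:83768885-83775813) was at 10.8 and 9.32 TPM in ESCs, 3.81 and 6.04 in pESCs, 1.44 and 1.38 in ESC-PGCLCs, 5.17 and 4.16 in pESC-PGCLCs, and 4.06 and 3.85 in PGCs. It fell by 2.19 ± 0.21 in ESC-PGCLCs (limma adjusted p = 9.20e-05), with -0.04 ± 0.21 in pESC-PGCLCs (95% interval -0.54 to 0.45). Tex21 (chr12:76198686-76246746) was at 7.16 and 6.63 TPM in ESCs, 5.68 and 9.37 in pESCs, 1.30 and 2.03 in ESC-PGCLCs, 6.39 and 4.16 in pESC-PGCLCs, and 4.40 and 3.93 in PGCs. It fell by 1.58 ± 0.27 in ESC-PGCLCs (limma adjusted p = 0.00184), with -0.43 ± 0.27 in pESC-PGCLCs (adjusted p = 0.244), and its ESC-PGCLC values rest on 15 and 20 reads. In PGCs against stem cells the differences were -0.69 ± 0.18 for Tex261 (limma adjusted p = 0.0125), -0.65 ± 0.23 for Tex21 (adjusted p = 0.0442), -0.49 ± 0.14 for Tex19.1 (adjusted p = 0.0152) and -0.18 ± 0.18 for Tex264 (adjusted p = 0.435), none of them called. After median centring Tex261 (-1.45), Tex21 (-1.41) and Tex19.1 (-1.25) were called lower there. In all 4 genes both ESC-PGCLC libraries were the lowest of the 10. These are also the shallowest libraries, and the part of depth was not tested.

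**Figure D3:**
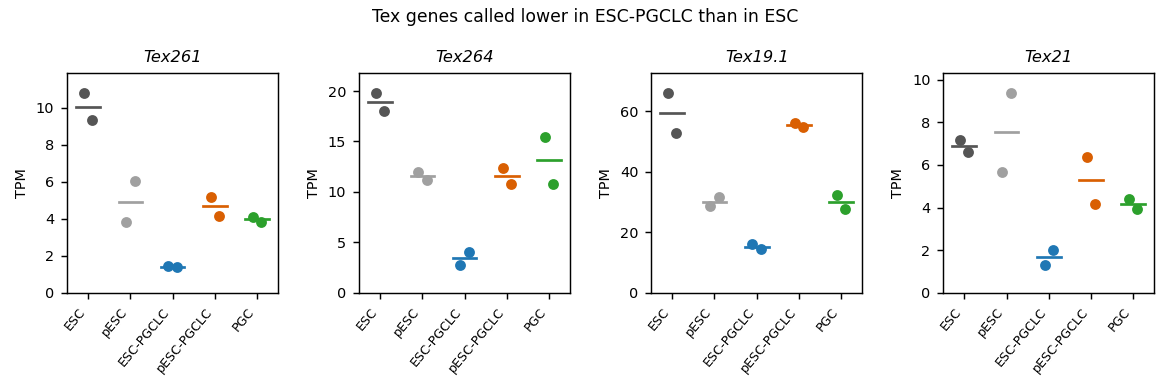
TPM (vertical axes from 0) of Tex261, Tex264, Tex19.1 and Tex21 by group, with each point a library and each line the mean of 2. The ESC-PGCLC points are the lowest in every panel, and ESCs have the highest mean for all but Tex21.

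The change on differentiation was compared between the lines by an interaction term, the change of pESCs minus that of ESCs. By this test 6 of 29 Tex genes were called with a higher value for pESC origin and 0 with a lower one, against 15.5% and 3.53% of all tested genes. They were Tex101 (2.80 ± 0.34, limma adjusted p = 0.00121), Tex19.1 (2.76 ± 0.22, adjusted p = 0.000378), Tex264 (2.19 ± 0.30, adjusted p = 0.00186), Tex261 (2.15 ± 0.30, adjusted p = 0.00211), Tex37 (1.47 ± 0.28, adjusted p = 0.00851) and Tex10 (1.25 ± 0.25, adjusted p = 0.00915). Tex101 and Tex37 rose in both lines, and rose further from pESCs. In Tex19.1, Tex261, Tex10 and Tex264 the term also holds a lower starting level. The difference of pESCs from ESCs was -0.95 ± 0.16 for Tex19.1 (limma adjusted p = 0.0426) and -0.92 ± 0.21 for Tex261 (adjusted p = 0.0726). It was -0.75 ± 0.17 for Tex10 (limma adjusted p = 0.0738) and -0.67 ± 0.21 for Tex264 (adjusted p = 0.144), and none of these was called. For Tex10 the difference of pESC-PGCLCs from ESC-PGCLCs was 0.50 ± 0.17 (limma adjusted p = 0.0741), also not called. For Tex9 the interaction was 0.55 ± 0.25 (adjusted p = 0.153) and for Tex21 it was 1.15 ± 0.38 (adjusted p = 0.0671), so neither was shown to differ between the lines. Tex16 was at -0.67 ± 0.21 and was not called, but it was called with a lower value for pESC origin by voom (-2.43), median centring (-1.41), quantile normalization (-1.08) and a pseudocount of 0.1 TPM (-1.37). The calls under median centring were 4 higher and 3 lower, and Tex37 (0.72) and Tex10 (0.51) lost theirs. With quantile normalization and with voom there were 5 and 1, where Tex10 (0.50) and Tex37 (1.25) were lost in turn, and Tex10 was also lost without pESC replicate 1 (0.99).

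**Figure D4:**
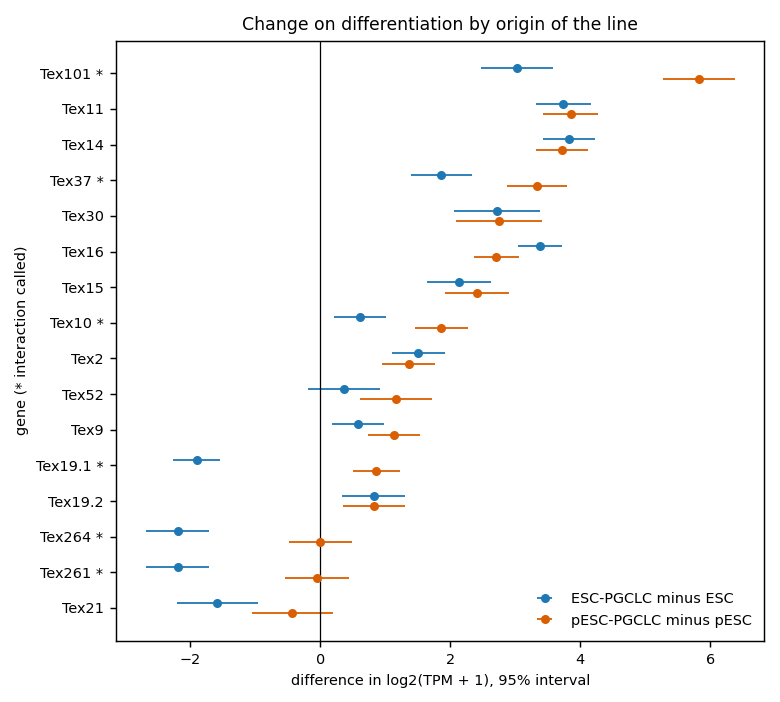
Difference in log2(TPM + 1) with its 95% interval (horizontal axis) for the 16 Tex genes called in any comparison, for ESC-PGCLCs minus ESCs (blue) and pESC-PGCLCs minus pESCs (orange), with a star where the interaction was called. Tex11, Tex14, Tex30, Tex15 and Tex2 have overlapping intervals, whereas Tex101, Tex37, Tex10, Tex19.1, Tex264 and Tex261 lie further to the right in pESC-PGCLCs.

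Directly between the kinds of PGCLC, 6 of 29 Tex genes were higher in pESC-PGCLCs and 0 lower, against 10.3% and 3.08% of all tested genes. These were Tex101 (2.51 ± 0.24, limma adjusted p = 0.000390), Tex19.1 (1.81 ± 0.16, adjusted p = 0.000269), Tex264 (1.53 ± 0.21, adjusted p = 0.00173), Tex37 (1.47 ± 0.20, adjusted p = 0.00170), Tex21 (1.23 ± 0.27, adjusted p = 0.0141) and Tex261 (1.23 ± 0.21, adjusted p = 0.00494). Quantile normalization and median centring each left 4 of the 6 calls, ending those of Tex261 (0.93 and 0.82) and Tex21 (0.91 and 0.82). The call of Tex21 was also lost in a fit of the compared groups alone (adjusted p = 0.0843), without ESC-PGCLC replicate 1 (1.03, adjusted p = 0.0824) and without pESC-PGCLC replicate 1 (0.97, adjusted p = 0.0962). Tex16 was lower by 0.54 ± 0.15 in pESC-PGCLCs (adjusted p = 0.0343), under 2-fold. The blood and gonadal somatic marker sums given above were also higher in pESC-PGCLCs than in ESC-PGCLCs, with haemoglobin Hba-a1 at 97.9 and 104 TPM in ESC-PGCLCs and 933 and 814 in pESC-PGCLCs, and their part in these differences was not tested.

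Between the undifferentiated lines, 0 of 29 Tex genes were called by limma, and in pESCs 0.165% of all tested genes were higher and 0.616% lower. An unadjusted p under 0.05 was seen in 6, 5 of them lower, and voom also called 0. The share of all tested genes at that unadjusted threshold is not given, so the count of 6 has no reference. Tex19.1 was lower in pESCs by 0.95 ± 0.16 (adjusted p = 0.0426), just under 2-fold, with no overlap of the libraries. Tex261 (-0.92 ± 0.21, adjusted p = 0.0726) and Tex10 (-0.75 ± 0.17, adjusted p = 0.0738) did not pass. Without pESC replicate 2, 3 members were called lower, and these were Tex261 (-1.20), Tex19.1 (-1.02) and Tex10 (-1.01).

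Between PGCs and both kinds of PGCLC together, limma again called 0 of 29 Tex genes, with 3.39% of all tested genes higher and 0.539% lower in PGCs. At an unadjusted p under 0.05 there were 10, 9 of them higher in PGCs, and voom called 1, Tex19.2 (1.22). The share of all tested genes at that unadjusted threshold is not given, so the count of 10 has no reference. Tex264 (0.92 ± 0.18), Tex19.2 (0.92 ± 0.18), Tex52 (0.84 ± 0.21), Tex101 (0.77 ± 0.21), Tex2 (0.69 ± 0.15) and Tex10 (0.53 ± 0.15) had adjusted p-values of 0.0178 to 0.0456 with differences under 2-fold. Without PGC replicate 2, 4 members were called higher in PGCs, namely Tex264 (1.16), Tex52 (1.15), Tex19.2 (1.03) and Tex50 (1.70). Gonadal somatic markers were also higher in PGCs than in both kinds of PGCLC, as given above, and their part was not tested.

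The remaining 13 members were called in no comparison. Tex50 was the only one of them to reach 1 TPM, with 3.02 TPM (23 reads) in PGC replicate 1 against 0.279 TPM (3 reads) in PGC replicate 2 and 0 to 0.535 TPM in the other libraries. Without PGC replicate 2 it was called higher in PGCs than in stem cells (1.52). The PGC replicates differed by more than the range over all other libraries. The other 12 stayed under 1 TPM and at or below 9 reads in every library. Their highest levels were 0.792 TPM for Tex33, 0.507 for Tex46, 0.463 for Tex26, 0.306 for Tex38, 0.303 for Tex45, 0.285 for Tex44, 0.231 for Tex35, 0.193 for Tex22, 0.186 for Tex29, 0.177 for Tex24, 0.130 for Tex47 and 0.119 for Tex36. Few reads limit what can be seen of these genes. Some were called under other settings, namely Tex26 higher in pESC-PGCLCs than in ESC-PGCLCs with a pseudocount of 0.1 TPM (1.96), Tex46 lower in pESC-PGCLCs than in pESCs with median centring (-1.03), and Tex44 (-1.02) and Tex46 (-1.15) in the interaction with median centring. Tex22, Tex24, Tex33, Tex35, Tex45 and Tex47 were below the limit for testing. Voom called Tex38 higher in germ cells, on 1 read in each of 4 germ cell libraries and 0 in the stem cells.

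For comparison, a list of 15 other germline genes was read in the same fits, among them Dazl and Ddx4, RNA-binding proteins of germ cells, Sycp3 of the synaptonemal complex, and Piwil2 and Mael of the piRNA pathway. All but Tdrd9 and Rpl10l, 13 of 15, were called higher and 0 lower in germ cells together, in ESC-PGCLCs, in pESC-PGCLCs and in PGCs. Of all tested genes 19.0%, 15.3%, 20.8% and 25.3% were called higher in these comparisons, and shares for the others are given above. The list was chosen for germline genes with earlier results of these data known, so many calls were built in and it is no independent yardstick. In germ cells together the median difference over the 15 was 4.89. The largest riser of the Tex series, Tex101, came to 4.69, just below that median, and Tex19.2, Tex52, Tex10 and Tex2 rose by under 2. Between the undifferentiated lines 0 of the 15 were called. For pESC-PGCLCs against ESC-PGCLCs 1 was called, Sycp3, lower in pESC-PGCLCs, and the interaction called Sycp3 and Taf7l, both with the lower value for pESC origin. The Tex genes called by limma in these 2 comparisons had the higher value for pESC origin.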

How the data were processed

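RNA-seq was measured in 10 libraries, 2 for each of 5 groups taken from the sample titles. The authors mapped reads with Hisat2 (mm10), assigned them to genes with Feature-counts and deposited TPM by gene symbol. The submitters' processing notes also name Bowtie2, RSEM and R 3.4.2. The annotation version, strand setting and how TPM was scaled are not given in the sources used here. Positions and exon lengths came from GENCODE M21 (GRCm38) by unique symbol. TPM times exon length gave whole reads (within 0.05) for 95.1% to 95.3% of values, and for all 29 Tex genes, and these reads give the depths.

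Values were transformed as log2(TPM + 1), and genes that reached 0.1 TPM in 2 or more libraries were fitted in R 4.3.3 with limma 3.58.1 (5 group means, trended empirical Bayes variances, 5 residual degrees of freedom). Benjamini-Hochberg adjustment ran over all 27259 genes. Calls needed an adjusted p under 0.05 and a 2-fold difference. Members called in any comparison are named with every value, others with at least 1 TPM in a library with their levels, and the rest by their highest level. The members, marker lists, germline list and promoter letters were chosen with earlier results of these data known. The study's replicates are stated as biological. Alternatives were another pseudocount, other filters, quantile normalization, median centring, the replicate block, fits of the compared groups, no fold minimum and leaving out each library, and voom on recovered reads was added after seeing the data. The scripts were tested on simulated data. Sequence shared between genes was counted in 100-base stretches of transcripts. Tables used Python 3.11.15 and pandas 2.3.3, figures matplotlib 3.10.9.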

Additional observations from a re-analysis of the deposited data

Results flagged for a closer look

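The change on differentiation differed between the lines by limma's interaction term for 6 of 29 Tex genes, all with the higher value for pESC origin. Of all tested genes 15.5% were called higher and 3.53% lower by this term. It is given as the change from pESCs minus the change from ESCs in log2(TPM + 1). The values were 2.80 for Tex101, 2.76 for Tex19.1, 2.19 for Tex264, 2.15 for Tex261, 1.47 for Tex37 and 1.25 for Tex10. The call of Tex37 was lost under median centring (0.72) and voom (1.25). That of Tex10 was lost under quantile normalization (0.50), median centring (0.51) and without pESC replicate 1 (0.99). Part of the term in Tex19.1, Tex264, Tex261 and Tex10 was a lower level in pESCs than in ESCs. For Tex19.1 both ESC-PGCLC libraries were below both ESC libraries, and both pESC-PGCLC libraries were above both pESC libraries, but the latter difference (0.86) was not called and was 0.13 after median centring. For Tex37 the interaction equals the difference between the kinds of PGCLC, since both lines had 0 reads. No group has enough libraries for a test of single outlying libraries.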

How the results depend on the processing

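Of the 57 differences called in single Tex genes, 45 kept the call in every recomputation, and of 842 recomputed values 812 kept it, 30 lost it and 0 changed sign. The setting with no fold minimum kept the same p-values, so it could not end a call. The counts of called Tex genes stayed within 1.5 times of the reported ones in 108 of 117 recomputations. The exceptions were in the comparisons that had called 0. PGCs against PGCLCs gave 2 with a pseudocount of 0.1 TPM, 1 with median centring (Tex30, lower), 6 with no fold minimum and 1 with voom, and 0 to 4 when 1 library was left out. pESCs against ESCs gave 1 with no fold minimum, and 0 to 3 when 1 library was left out. The replicate block gave 0 in both, and in the other comparisons 11, 12, 11, 11, 6 and 6, as without it, so it changed no count. The deviations of same-numbered libraries correlated at -0.09 to 0.35 over 10 pairs of groups. No range for libraries known to be unpaired was at hand, so these values cannot show whether same-numbered libraries were paired. Uncalled differences that changed sign were those of Tex264 from pESCs to pESC-PGCLCs (-0.63 with quantile normalization, -0.73 with median centring, -0.29 with voom, -0.089 to 0.092 with 1 library left out), of Tex264 in PGCs against stem cells (-0.42 to 0.061 with 1 library left out), of Tex261 from pESCs to pESC-PGCLCs (-0.32 to 0.23 with 1 library left out) and of Tex26 between the kinds of PGCLC (-0.021 with median centring), and the cause was not tested. With 2 libraries a group, genes of few reads are limited by depth, above all in the ESC-PGCLC libraries.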
